A study of Rattus norvegicus with 2 samples.

Results

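Polyamine synthesis and catabolism were represented by 10 genes of newborn rat epidermal keratinocytes, chosen by name: Odc1, Amd1, Srm and Sms for synthesis, Oaz1, Oaz2 and Azin1 for control of the Odc1 protein, and Sat1, Paox and Smox for catabolism. A gene was represented by the probe set whose annotation gave exactly that symbol, and where there were several, by the one with the highest mean signal. All 10 had such a probe set, among 22093 genes in all. The study has 2 GeneChip arrays at day 5 of culture, one from cells given all-trans retinoic acid (RA) at 5 µM and one from cells without RA. The title of the array without RA names no treatment; the design text gives vehicle as the only other condition, and it was read as that. RA is the vitamin A metabolite that acts through nuclear receptors. The cells, called NRK in the labels, were cultured in serum-containing medium, and whether 1 culture or several went onto an array is not stated in the labels. With 1 array per group, the values below have neither replicate nor error, the spread between cultures is unknown, and no test was possible.

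Polyamines (putrescine, spermidine and spermine) are small positively charged molecules that bind nucleic acids and are needed for growth. Ornithine decarboxylase, the Odc1 product, makes putrescine, Amd1 supplies the aminopropyl donor, and the synthases Srm and Sms extend putrescine to spermidine and spermidine to spermine. Antizymes (Oaz1, Oaz2) bind the decarboxylase and send it to the proteasome, and the antizyme inhibitor Azin1 takes up antizyme. Sat1 acetylates spermidine and spermine for export or for oxidation by Paox, while Smox oxidises spermine directly. In skin, ornithine decarboxylase activity is a classical mark of proliferating and tumour-promoter-treated epidermis.

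Among the 10 genes, Sat1 and Odc1 were over 2-fold higher with RA, and Srm and Paox were over 2-fold lower, while the other 6 differed by less. Over all genes with a signal above the array median, 7.88% were past 2-fold on the higher side and 5.63% on the lower side. The 2 of 10 in each direction was above this background, but this is a description without a test. The background is not matched for signal, and the 10 genes were chosen with earlier results of these data known. The excess is therefore no support for a difference of the set. Among genes with a signal like that of each member, the share past 2-fold in either direction ran from 7.97% for Smox to 30.6% for Sat1. The promoters of these 4 genes are printed here, since these genes carry the differences described below. They are the RefSeq windows of GRCr8 from 250 bases before the gene start to 50 after it, read in the direction of the gene, and matched 9 of the 10 genes, all but Azin1. Capitals mark matches, on either strand, to 4 short motifs: CACGTG (the E-box bound by Myc and Max), AGGTCA (the core sequence bound by RA receptors), TATAAA (the TATA box) and TGACNNNGC (the core of the antioxidant response element).
Odc1, chr6:46058415-46058714, plus strand: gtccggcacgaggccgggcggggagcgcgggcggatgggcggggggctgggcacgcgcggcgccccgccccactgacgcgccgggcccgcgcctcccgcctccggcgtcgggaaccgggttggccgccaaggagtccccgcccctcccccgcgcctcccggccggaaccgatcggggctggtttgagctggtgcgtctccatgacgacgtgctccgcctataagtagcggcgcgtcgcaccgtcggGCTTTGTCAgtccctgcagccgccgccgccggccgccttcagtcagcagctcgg
Sat1, chrX:44007839-44008138, plus strand: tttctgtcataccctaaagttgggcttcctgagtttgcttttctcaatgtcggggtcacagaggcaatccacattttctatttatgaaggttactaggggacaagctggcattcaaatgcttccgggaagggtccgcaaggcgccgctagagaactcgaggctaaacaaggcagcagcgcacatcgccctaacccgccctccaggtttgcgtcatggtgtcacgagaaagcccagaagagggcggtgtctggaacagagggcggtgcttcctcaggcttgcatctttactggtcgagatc
Srm, chr5:164308752-164309051, plus strand: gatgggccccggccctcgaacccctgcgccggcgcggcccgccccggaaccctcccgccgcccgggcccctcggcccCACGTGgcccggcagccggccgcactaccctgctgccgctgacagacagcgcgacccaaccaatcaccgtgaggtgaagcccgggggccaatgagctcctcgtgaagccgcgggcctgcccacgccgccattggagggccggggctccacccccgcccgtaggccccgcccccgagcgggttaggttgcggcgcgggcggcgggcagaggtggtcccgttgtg
Paox, chr1:204349076-204349375, plus strand: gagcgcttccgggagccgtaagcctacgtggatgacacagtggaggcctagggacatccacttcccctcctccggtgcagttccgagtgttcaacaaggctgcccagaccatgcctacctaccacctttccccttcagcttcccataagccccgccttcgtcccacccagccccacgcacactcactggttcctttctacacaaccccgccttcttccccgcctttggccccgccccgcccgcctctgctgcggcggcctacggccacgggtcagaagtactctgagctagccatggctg
The 4 windows differed in base composition, with 77.3% G and C in Odc1, 53.3% in Sat1, 77.7% in Srm and 63.7% in Paox. Srm held 1 E-box, which began 173 bases before the start. Odc1 held 1 antioxidant-type core, on the minus strand across the start. Sat1 and Paox had none of these letters in the window.

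Over the 9 windows, CACGTG was found in Srm and Oaz1, against 6.42% of all 33469 promoters of this length. TATAAA was found in Oaz1 and Amd1, against 14.2% of all promoters, and it began 28 and 29 bases before the start. TGACNNNGC was found in Odc1 and Oaz1, against 12.1%. AGGTCA was found in Smox only of the 9, after the start, against 16.2%. The motif matches did not overlap each other. The Smox, Amd1 and Oaz1 windows belong to genes that were under 2-fold different between the arrays.

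Levels are given as the deposited log2 signals, and a difference is the level with RA minus the level without RA. The values end at 19.93 on both arrays, beyond the scanner ceiling of 16 on this scale, so that 2-fold, a difference of 1 log2 unit, is meant on the deposited scale only. A gene counted as above the floor where its higher value was at least 3.81, the median signal over the 2 arrays, and 14274 genes met this, including all 10 polyamine genes. In this set the share past 2-fold in either direction was 13.5% (7.88% higher, 5.63% lower), and among the polyamine genes it was 4 of 10. Their median difference was 0.07 (-0.093 without Sat1), and that of all genes above the floor was -0.03. After removal of a lowess curve over all probe sets the median of all genes was 0.08, and 69.3% of the genes past 2-fold were on the higher side, against 58.3% as deposited. Some of the array's own control probe sets differed too. The 399 rat positive controls had median signals of 10.28 with RA and 10.24 without RA. Of these, 50 lay past 2-fold on the higher side and 61 on the lower side. Their central 95%, from -1.72 to 2.14, held the differences of Odc1, Srm and Paox but not that of Sat1. They were not matched to these genes in signal, and Sat1 had a mean of 13.98. The differences of the rat positive and rat negative controls may hold responses to RA as well as noise, so this range is no measure of noise alone. Of 1153 rat negative controls, with medians of 4.47 with RA and 4.57 without RA, 137 were past 2-fold higher and 181 lower. None of 23 background probe sets and 92 spike sequences was past 2-fold, and their median signals were under the floor.

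**Figure D1:**
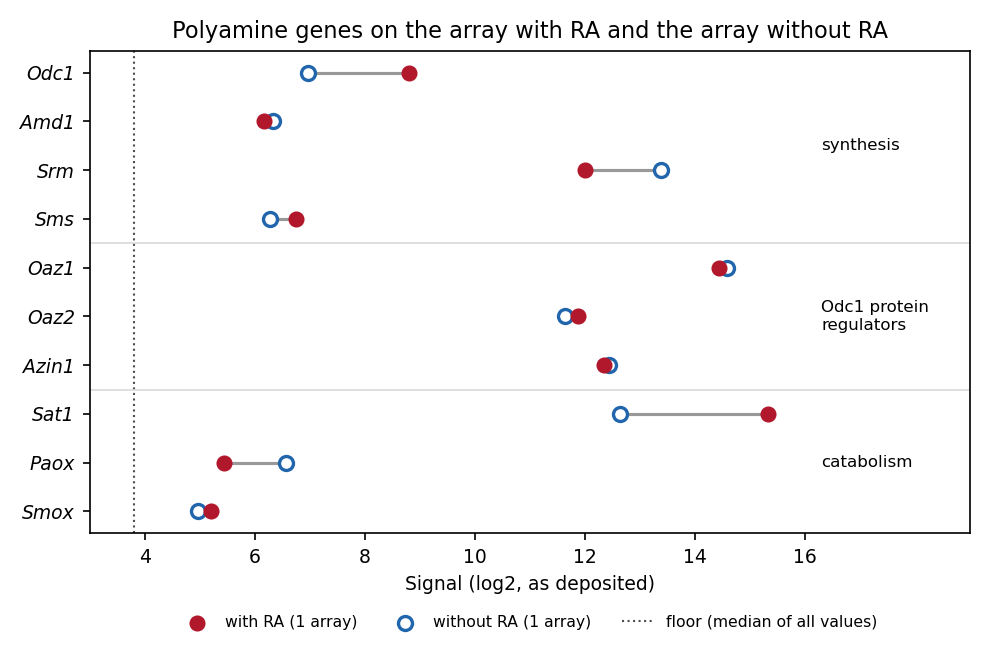
Signal (log2, as deposited) of each polyamine gene on the array with RA (filled) and the array without RA (open), grouped by role, with the floor of 3.81 as a dotted line. Odc1 and Sat1 were higher with RA, Srm and Paox lower, and the points of the other 6 genes lay within 0.47 units of each other.

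The genes of synthesis did not move together. Odc1, the first enzyme of the pathway, had a signal of 8.80 with RA, against 6.96 without RA, a difference of 1.84 or 3.58-fold. It ranked 510th from the highest among the 14274 differences. Of 1592 genes above the floor with a mean signal within 0.5 units of its own, 19.4% were at least 2-fold different, with 95% of the differences between -2.36 and 2.72. Such ranges may hold responses to RA as well as noise, and the difference of Odc1 lay inside its range.

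Srm, spermidine synthase, had a signal of 12.01 with RA, against 13.39 without RA, and was 2.60-fold lower, by a difference of -1.38. The probe set used for it, the brighter of 2, is named as unmapped on the array. The second Srm probe set, which is not named so, had 11.57 with RA and 12.66 without RA. It differed by -1.09, so both lay past 2-fold in the same direction, the second only just. The Srm difference was -0.85, under 2-fold, after removal of the lowess curve over all probe sets. Of 239 genes with a mean signal like that of Srm, 28.5% were at least 2-fold different, with a central 95% from -4.27 to 3.63.

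The other enzymes of synthesis differed less. Amd1, S-adenosylmethionine decarboxylase, had 6.17 with RA and 6.33 without RA, a difference of -0.17. Its annotated pseudogene Amd1-ps3 has a probe set of its own, at 4.48 with RA and 4.70 without RA, and signal between such copies may be shared. Sms, spermine synthase, had 6.76 with RA and 6.29 without RA, a difference of 0.47. The decarboxylase that starts the pathway was thus the only one of the 4 synthesis genes past 2-fold on the higher side, and on the deposited values the synthase that follows it was the only one past 2-fold on the lower side.

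Catabolic genes also went in both directions. Sat1, the spermidine/spermine acetyltransferase, had a signal of 15.33 with RA, against 12.64 without RA, a difference of 2.69 or 6.44-fold. This was the largest difference of the 10 genes in either direction, and ranked 233rd from the highest of all 14274. Of 144 genes with a mean signal like that of Sat1, 30.6% were at least 2-fold different, with 95% of the differences between -5.13 and 2.68. Sat1 itself is among the 144, and its value lay just above the upper end. Sat1 was also the only one of the 10 past 4-fold in either direction, where 3.05% of all genes above the floor lay on the higher side and 2% on the lower side.

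Paox, the peroxisomal oxidase of acetylated polyamines, had 5.45 with RA, against 6.58 without RA, and was 2.18-fold lower, by a difference of -1.13. It lay just past the 2-fold line, and of 2153 genes of like signal 11.6% were at least 2-fold different. Smox, spermine oxidase, had 5.20 with RA and 4.97 without RA, a difference of 0.23. The acetylating enzyme and the oxidase that acts on its products therefore had differences of opposite sign, and the direct spermine oxidase was under 2-fold.

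Of the 3 regulators of the Odc1 protein, none was 2-fold different. Oaz1, the main antizyme, had 14.44 with RA and 14.58 without RA, a difference of -0.14. Oaz2, the second antizyme, had 11.88 with RA and 11.65 without RA, a difference of 0.23. The probe set used for Oaz2 is also named as unmapped, and its other probe set, not named so, gave 0.21. Azin1, the antizyme inhibitor, had 12.35 with RA and 12.45 without RA, a difference of -0.09. The signs for Oaz1 and Azin1 depended on the scaling: after the lowess curve over all probe sets Oaz1 differed by 0.54 and Azin1 by 0.41, and after a further quantile normalization by 0.60 and 0.11. An annotated Oaz1 pseudogene, Oaz1-ps1, gave a signal of 11.67 with RA and 12.08 without RA, and its probes may share signal with Oaz1. Antizyme is made by a polyamine-dependent shift of the reading frame, which RNA levels do not show.

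**Figure D2:**
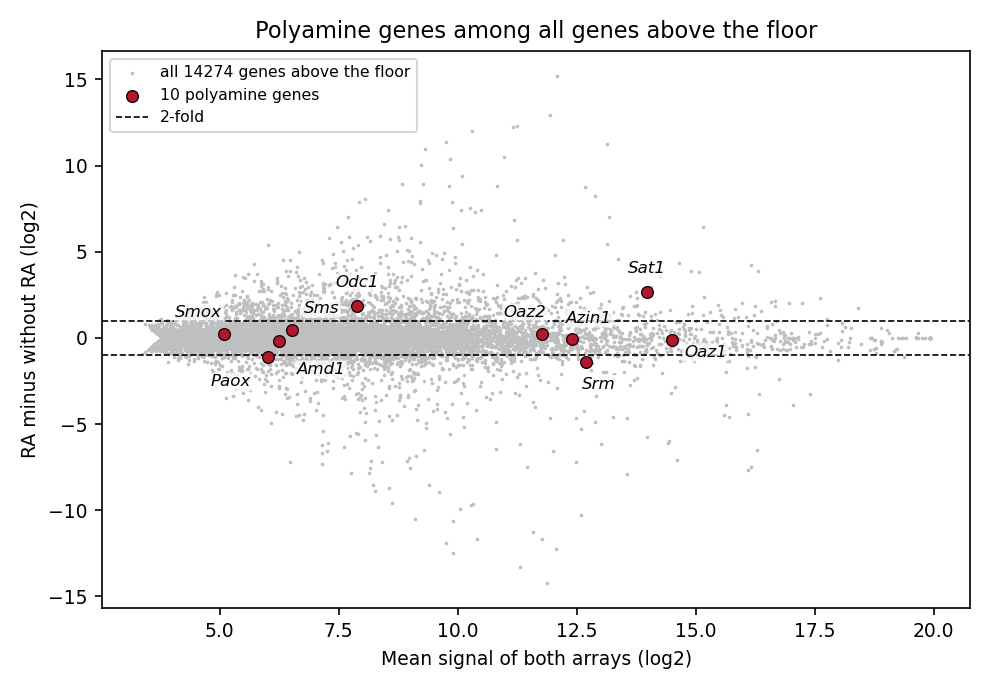
Difference (RA minus without RA, log2) against the mean signal of both arrays for the 14274 genes above the floor (grey) and the 10 polyamine genes (red), with 2-fold as dashed lines. Sat1 and Odc1 lay above the lines, Srm and Paox below them, and 6 genes lay between them, while differences of all genes reached from -14.20 to 15.20.

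The plot of differences against signal shows that the 4 polyamine genes past 2-fold were spread over the signal range, with Paox at a mean of 6.01, Odc1 at 7.88, Srm at 12.70 and Sat1 at 13.98. The share of genes past 2-fold was 30.6% among genes with a signal like Sat1 and 7.97% among those with a signal like Smox. The bright regulators Oaz1, Oaz2 and Azin1 were under 2-fold in signal ranges where 25.2%, 28.9% and 30.2% of genes were at least 2-fold different.

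Further genes of the pathway were taken from 6 lists, and of 54 measured genes 46 were above the floor. Past 2-fold, 3 of these 46 were on the higher side and 4 on the lower side, close to the 13.5% of all genes in either direction. Both signs were present in each list, as the plot by list shows.

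Genes that supply or use arginine, ornithine and proline had the highest median of the 6 pathway lists, 0.60. Past 2-fold were 3 of 11, all of them higher, against 7.88% of all genes above the floor. This list too was chosen with earlier results of these data known. Of the 11 differences, 9 were above 0 and 2 below it, Oat at -0.54 and Slc25a15 at -0.05. Aldh18a1, the enzyme that turns glutamate into the precursor shared by proline and ornithine, had 11.21 with RA, against 8.05 without RA, a difference of 3.17. Arg1, the arginase that releases ornithine from arginine, had 6.66 with RA, against 5.08 without RA, a difference of 1.58. Nos2, the inducible nitric oxide synthase that uses the same arginine, had 5.38 with RA, against 3.84 without RA, close to the floor, a difference of 1.54. The arginine-making enzymes Ass1 and Asl differed by 0.83 and 0.60 and the proline enzyme Pycr1 by 0.64, all under 2-fold. Arg1 and Odc1, which act one after the other, were both past 2-fold on the higher side, while Srm, which follows Odc1, differed by -1.38 as deposited.

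The methionine cycle, which makes the donor for the aminopropyl groups, had a median of -0.11 and 1 of 11 genes past 2-fold, on the lower side. The share of all genes above the floor on that side was 5.63%. Mat2a, the S-adenosylmethionine synthetase of most tissues, had 12.13 with RA, against 14.10 without RA, a difference of -1.96. Its regulatory subunit gene Mat2b differed by -0.87 and Mtap, which recycles the methylthioadenosine released by Srm and Sms, by -0.44. Ahcy, which clears S-adenosylhomocysteine, differed by 0.90, and came past 2-fold after removal of the lowess curve over all probe sets.

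Among 8 polyamine transport genes above the floor 1 lay past 2-fold, on the lower side, against 5.63% of all genes. Their median was -0.11. Gpc1, a heparan sulphate proteoglycan linked to polyamine uptake, had 6.66 with RA, against 8.80 without RA, a difference of -2.14. The P5-type ATPase gene Atp13a4 differed by -0.99, just under the threshold, and the vesicular transporter gene Slc18b1 by -0.71. Slc3a2, the heavy chain of amino acid transporters that is also linked to polyamine export, differed by 0.72.

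The 4 genes of eIF5A and its hypusine modification, which uses spermidine, were all under 2-fold, with a median of -0.32. Dohh, Eif5a and Eif5a2 differed by -0.39, -0.37 and -0.27. In the Myc family, whose members control Odc1 in many cells, 2 of 9 genes lay past 2-fold, both on the lower side. Over all genes above the floor, 5.63% lay on that side. Mycl had 6.14 with RA, against 8.62 without RA, a difference of -2.48, and Mxd4, a Max partner that opposes Myc, had 5.57 with RA and 6.58 without RA, at the threshold, and came under 2-fold in each of the 4 other scalings. Myc differed by -0.52, Mxi1 by 0.25 and Max by -0.19. The further enzymes and regulators of polyamines (Azin2, Oaz3, Sat2) lay near the floor, and Satl1 and Agmat under it, on both arrays.

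**Figure D3:**
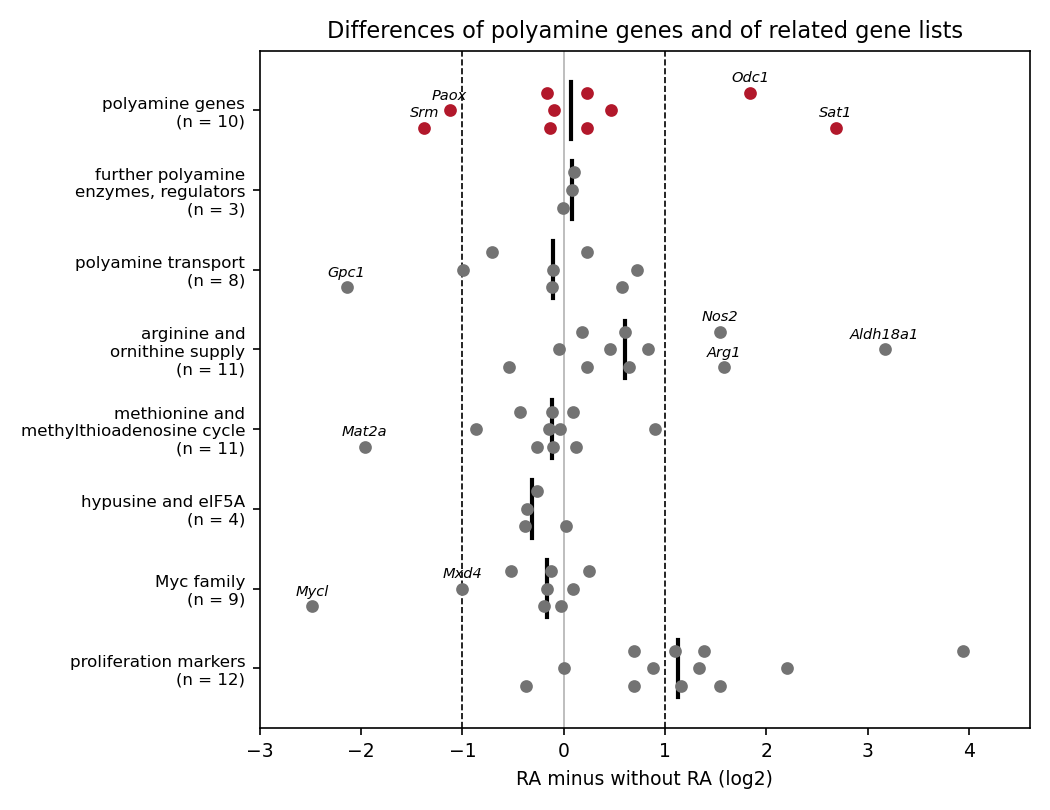
Difference (RA minus without RA, log2) of each gene above the floor, by list, with the list median as a vertical bar and 2-fold as dashed lines. Genes past 2-fold are named except among the proliferation markers. Of these markers 7 of 12 lay past 2-fold on the higher side, against 7.88% of all genes above the floor.

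Proliferation markers were mostly higher with RA, as was Odc1. Their median difference was 1.13, and 7 of 12 lay past 2-fold, all higher, against 7.88% of all genes above the floor. Mki67, a protein of cycling cells, had 9.52 with RA, against 8.13 without RA. Mcm5, a replication helicase subunit with the largest difference of the list, had 11.79 with RA, against 7.84 without RA. Pcna differed by 0.004, and Tyms was lower with RA, by -0.37. Their part in the Odc1 difference was not tested. In a bulk RNA sample, a change in the share of cells that make an RNA and a change in the amount per cell cannot be told apart.

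The keratinocyte label was checked against markers. All 10 measured markers were above the floor on both arrays, with a median difference of -4.55. Of these, 7 lay past 2-fold, all lower with RA, against 5.63% of all genes above the floor. The suprabasal keratins Krt1 and Krt10 differed by -14.20 and -11.65, and the basal keratin Krt14, which was at the highest deposited value without RA, had a difference of -7.68 or beyond. Dsg3, a desmosomal cadherin, differed by -6.18, the hemidesmosomal Col17a1 by -5.26, Sfn by -3.84 and Tp63, a transcription factor of basal keratinocytes, by -2.77. The integrins Itgb4 and Itga6 differed by -0.63 and -0.28. Krt15, another basal keratin, had 19.65 with RA and 19.60 without RA, near the highest deposited value of 19.93, where little difference can show. Of other cell types, 4 of 8 fibroblast, 2 of 7 melanocyte, 2 of 7 immune and 1 of 5 endothelial markers were above the floor. The fibroblast list ranged from 3.06 to 8.63 with RA and from 3.12 to 7.03 without RA, and Dcn, Lum, Pdgfra and Thy1 were under the floor on both arrays. Of its other members, Fbln1, an extracellular matrix protein, had 8.63 with RA, against 5.73 without RA, and Col3a1, a fibrillar collagen, had 4.90 with RA, against 7.03 without RA. The 1 endothelial marker above the floor, Tek, had 6.38 with RA, against 7.72 without RA, and both melanocyte markers above it were under 2-fold. The immune list ranged from 3.12 to 11.31 with RA and from 3.14 to 5.41 without RA. In it, Ptprc, a marker of white blood cells, was under the floor on both arrays, while Cd68, a lysosomal protein of macrophages and other cells, had 11.31 with RA, against 5.41 without RA. Sat1, which many cell types make, was higher on the array with RA, as were Cd68 and Fbln1, while Col3a1 and Tek were lower there, and the part of other cells in its difference was not tested.

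**Figure D4:**
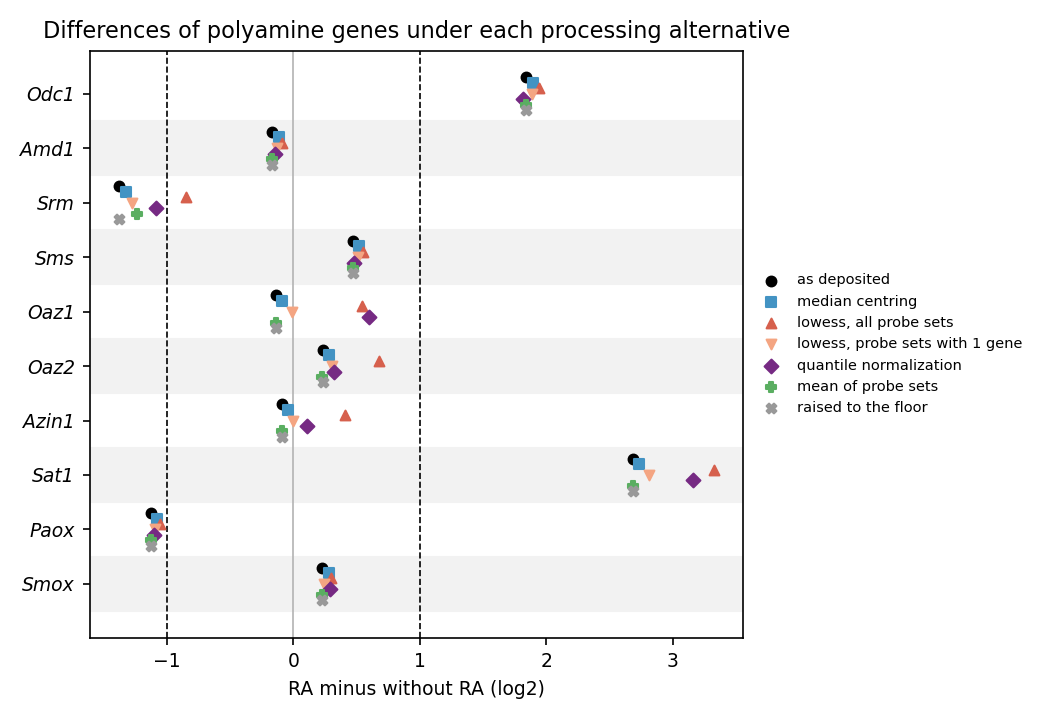
Difference (RA minus without RA, log2) of each polyamine gene as deposited and under 6 processing alternatives, with 2-fold as dashed lines. Odc1, Sat1 and Paox stayed past 2-fold in all of them, and Srm came to -0.85 after the lowess curve over all probe sets. Raising values to the floor could change none of these genes, and averaging probe sets could change only Srm and Oaz2.

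The plot of alternatives shows how far the scaling moved each gene. All of the genes lay above the floor on both arrays, so raising values to it could move none of them. Averaging of probe sets could move only Srm and Oaz2, which had more than 1. Over the 6 alternatives Odc1 ran from 1.81 to 1.94, Sat1 from 2.69 to 3.32, Paox from -1.13 to -1.05 and Srm from -1.38 to -0.85. Oaz1, Sat1, Srm, Azin1 and Oaz2 moved most, and Amd1, Sms and Smox each moved by less than 0.1.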

How the data were processed

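RNA was hybridised to 2 GeneChip arrays after whole-transcript biotin labelling, per the labels' protocols. The authors deposited 1 log2 signal per probe set and array, and the submitters' processing notes name RMA and the Transcriptome Analysis Console; versions, order of steps and genome build are not given in the sources used here. The log2 base was read from the values. Of 70580 probe sets, 23446 had 1 gene symbol and were used; 505 had several and 46629 none. Symbols were updated through Entrez IDs against the RefSeq table of GRCr8, where 22077 matched and all 10 polyamine genes did.

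Differences, counts and medians were computed with Python 3.11.15, numpy 2.4.6, pandas 2.3.3 and statsmodels 0.14.6 (lowess, span 0.2), and the counting was tested on simulated data. With 1 array per group no p-value was computed, and array number limits the precision. The members and lists were chosen with earlier results of these data known. Named beside the 10 genes were members of the 6 pathway lists at least 2-fold different and at most 3 further per list by size. Genes near or under the floor in those lists, and Oat and Slc25a15, were chosen after their values were seen. So were all genes named from the proliferation and cell type marker lists. Alternatives were other scalings, probe set averaging, floors and thresholds. Promoters came from RefSeq. Protein sequences were not used here.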

Additional observations from a re-analysis of the deposited data

How the results depend on the processing

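Of 106 recomputed values, 92 stayed within set limits, which were the same sign, the same side of 2-fold and a move of under 1.5-fold for a gene, a count within 1.5 times, and a median within 0.1. Part of the 92 could not have moved. Every polyamine gene lay above the floor on both arrays, so raising values to it or dropping it changed none of them. Averaging of probe sets could change only Srm and Oaz2. The 92 of 106 is therefore no measure of stability. Removal of a lowess curve over all probe sets moved more values outside the limits than any other single alternative. Under it Srm came to -0.85 and so no longer reached 2-fold, Sat1 to 3.32, Oaz1 to 0.54 and Azin1 to 0.41, the count at least 2-fold lower was 1 in place of 2, and the median of the polyamine genes was 0.48. Oaz2, within the limits, was 0.68 under it, against 0.23 as deposited. A further quantile normalization gave 0.60 for Oaz1, 0.11 for Azin1 and 0.30 for the median. The cause was not tested. The median was -0.093 when Sat1 was left out and also with a floor at the 75th percentile of all values, and the mean was 0.26. At 4-fold, 1 gene was higher and 0 were lower. No paired analysis was possible because there is a single array with RA and a single one without it, which also leaves no replicate to omit. Of the 10 genes, Smox and Paox had the lowest mean signals, and no detection calls were used.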
